A study of Homo sapiens with 8 samples.

Results

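The 10 genes described here, all of the tumour necrosis factor (TNF) superfamily and its signalling, were followed in the RNA of MDA-MB-231 cells treated with EMD37. They were TNFRSF10A, TNFRSF10B, TNFRSF10D, FAS, TNFRSF12A and TNFRSF21 (receptors), TNFSF9, TNFSF10 and TNFSF15 (ligands) and TRAF1 (an adaptor). They were taken by symbol, through their Ensembl identifiers, and made up 10 of the 36715 genes in the count table. MDA-MB-231 is an established human line of triple-negative breast cancer, which lacks the oestrogen and progesterone receptors and HER2 amplification. Cells received EMD37 at 0.5 µM for 12 h, or DMSO as vehicle for 12 h, EMD37 at 0.5 µM for 24 h, or DMSO for 24 h, with 2 libraries (A and B) in each of these 4 groups. EMD37 is known here by its code alone. All 8 libraries came from the same line and carried no other labelled manipulation. The labels did not state whether A and B were separate cultures, so the p-values reflect only how these libraries scatter, which may be technical.

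Receptors of this superfamily bind trimeric ligands at the cell surface. Death receptors carry an intracellular death domain, through which they recruit FADD and caspase-8 and can start apoptosis, while other receptors of the family recruit TRAF adaptors and signal mainly to NF-kB and MAP kinases. In breast cancer cells the TRAIL system, in which the ligand TNFSF10 binds the death receptors TNFRSF10A and TNFRSF10B and the decoy TNFRSF10D, is much studied, and TNFRSF10B is a known target of the endoplasmic reticulum stress factor CHOP.

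Libraries held 8994977 to 11437813 counted reads, and the log2 CPM (counts scaled to a common library size) of the 2 libraries of a group correlated at 0.988 to 0.992. Mesenchymal markers of the line summed to 6289 to 7818 CPM per library, with TWIST1 at 0 in all 8. This sum ran from 6289 to 6565 CPM with EMD37 and from 7381 to 7818 CPM with vehicle at 24 h. At 12 h it ran from 6973 to 7136 CPM with EMD37 and from 7416 to 7509 CPM with vehicle. The groups did not overlap at either time, and the part of this sum in the results below was not tested. The sum was not a joint fall of its genes. Of the 7 tested, 1 was called higher and 3 lower at 24 h, beside 19.6% and 21.1% of all tested genes. CAV1 had 1151 and 1183 CPM with EMD37 at 24 h, against 2013 and 1845 CPM with vehicle. EGFR had 423 and 418 CPM with EMD37 at 24 h, against 215 and 243 CPM with vehicle. The 8 hormone receptor, HER2 and luminal markers summed to 7.81 to 12.5 CPM. The 10 leukocyte markers summed to 2.61 to 5.39 CPM, with LYZ at 0, and the 8 fibroblast markers to 2.24 to 5.71 CPM. In bulk RNA, fewer cells of a type and less RNA per cell cannot be told apart. Counts were not resolved by strand, and 16.6% of the exon bases of TNFRSF10A, 8.9% of FAS, 2.2% of TNFRSF12A and 1.3% of TNFRSF10B overlap a gene on the opposite strand.

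The ligand TNFSF15 and the adaptor TRAF1 rose furthest with EMD37 at both times. The decoy receptor TNFRSF10D, the ligand TNFSF9 and the death receptor TNFRSF10B also rose at both, and TNFRSF21 fell at 24 h. At 12 h, 5 of the 10 genes were called, each of them higher, at an adjusted p below 0.05 (quasi-likelihood test of edgeR, Benjamini-Hochberg adjustment over 14850 genes), where 8.70% of all tested genes were called, 5.27% higher and 3.43% lower. At 24 h the same 5 genes were higher and 1 was lower, against 40.7% of all tested genes called, 19.6% higher and 21.1% lower. The effect itself differed between the times in 5 of the 10 genes, 4 higher and 1 lower (the 24 h effect minus the 12 h effect, or interaction), against 15.9% of all tested genes called, 7.96% higher and 7.94% lower. The genes and lists were chosen with results of these data known, so these counts are a description. With 2 libraries per group, lack of overlap between EMD37 and vehicle was common. It held for 7 of the 9 tested genes at 12 h and 8 at 24 h, beside 54.8% and 66.8% of all tested genes. FAS had too few reads to be tested, and TNFSF10 entered the test through EMD37 libraries only. TNFSF15 had 4 EMD37 and 2 vehicle libraries above the low-count limit, and the other 7 genes were above it in all 8 libraries. Over all genes the 12 h background moved with the libraries used. With all 8 libraries 782 genes were higher and 510 lower. Without EMD37 A, EMD37 B, vehicle A or vehicle B of 12 h, 427, 387, 444 and 448 were higher and 127, 106, 124 and 211 lower. It was 1265 and 1271 higher and 949 and 958 lower without vehicle A or vehicle B of 24 h. For the interaction, 1182 genes were higher and 1179 lower with all 8 libraries. The count higher was 733, 677, 735 and 701 without EMD37 A, EMD37 B or vehicle A of 12 h or EMD37 B of 24 h. The count lower was 708, 513, 654, 694, 701 and 731 without EMD37 A, EMD37 B, vehicle A or vehicle B of 12 h, or EMD37 A or B of 24 h.

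**Figure D1:**
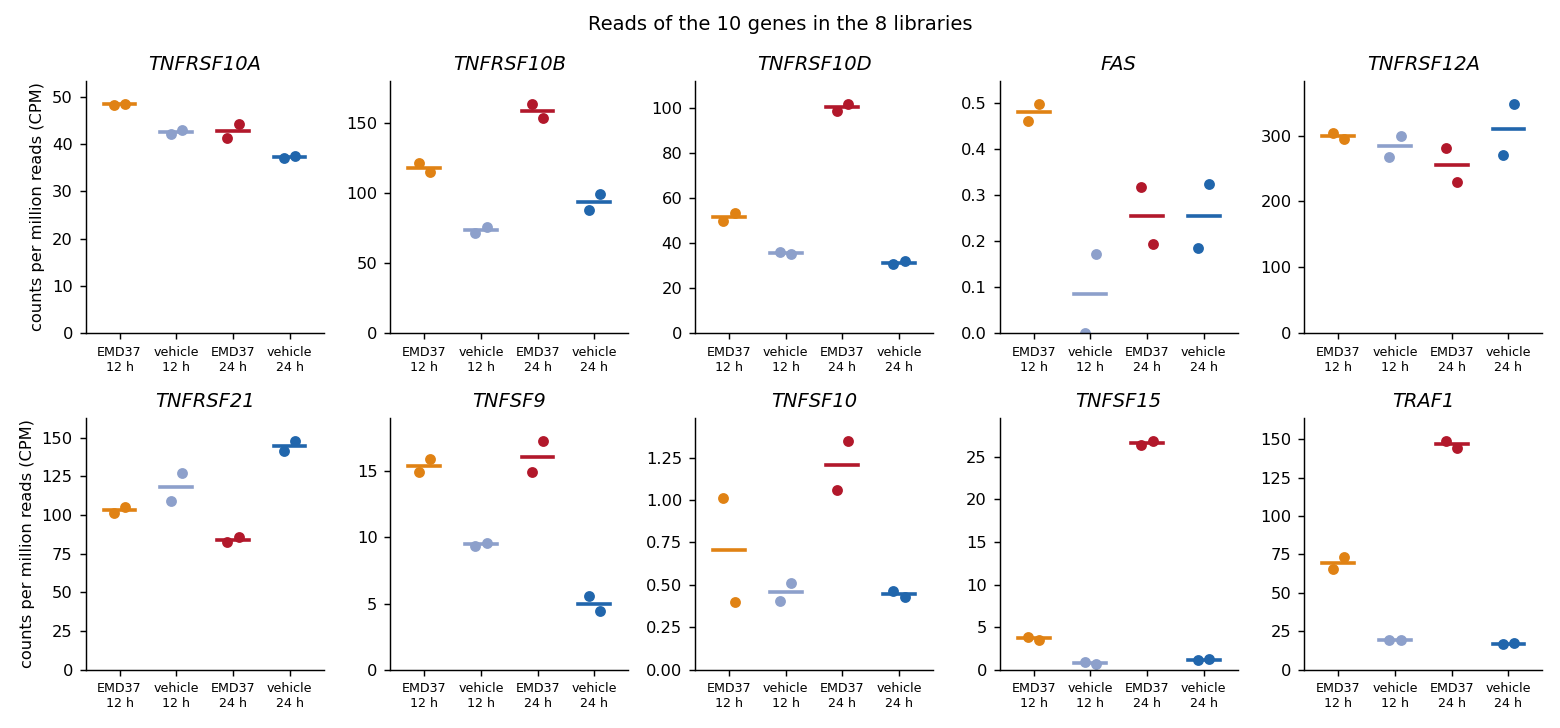
Level of each gene in CPM on a linear axis from 0 (own scale per panel), by group; points are the 2 libraries and bars their mean. TNFSF15 and TRAF1 stand at 26.4 to 26.9 and 144 to 149 CPM with EMD37 at 24 h, against 1.11 to 1.29 and 16.7 to 17.3 CPM with vehicle, and TNFRSF21 is lower with EMD37 at 24 h.

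TNFSF15 (ENSG00000181634; hg38 chromosome 9, 114784635 to 114806126, minus strand) encodes a ligand of the death receptor TNFRSF25 and is known as an inhibitor of endothelial growth and a T-cell costimulator. TRAF1 (ENSG00000056558; chromosome 9, 120902393 to 120929173, minus strand) encodes a TRAF without the RING domain that binds TRAF2 and the cIAP proteins. TNFSF9 (ENSG00000125657; chromosome 19, 6530999 to 6535928, plus strand) encodes the CD137 ligand. The 250 bases before a RefSeq start (GRCh38.p14) of these 3 genes are shown because they were the ligands and adaptor that rose together at both times, with any match to a searched motif in capitals.
TNFSF15, chr9:114792531-114792780, minus strand: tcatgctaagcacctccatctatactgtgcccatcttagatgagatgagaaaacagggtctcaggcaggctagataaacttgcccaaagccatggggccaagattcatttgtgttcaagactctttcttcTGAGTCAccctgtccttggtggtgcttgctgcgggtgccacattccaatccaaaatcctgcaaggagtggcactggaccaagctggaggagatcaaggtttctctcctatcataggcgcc
TRAF1, chr9:120929172-120929421, minus strand: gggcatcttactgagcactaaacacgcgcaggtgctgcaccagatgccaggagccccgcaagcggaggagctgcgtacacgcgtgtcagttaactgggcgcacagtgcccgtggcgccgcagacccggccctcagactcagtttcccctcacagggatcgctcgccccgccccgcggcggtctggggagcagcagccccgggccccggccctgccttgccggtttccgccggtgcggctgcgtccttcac
TNFSF9, chr19:6530776-6531025, plus strand: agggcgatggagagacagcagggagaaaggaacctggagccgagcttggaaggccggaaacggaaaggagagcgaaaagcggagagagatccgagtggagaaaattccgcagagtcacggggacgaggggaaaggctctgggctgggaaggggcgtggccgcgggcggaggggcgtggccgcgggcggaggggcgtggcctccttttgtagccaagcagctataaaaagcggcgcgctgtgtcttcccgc
The motifs searched, on both strands, were the NF-kB consensus, the AP-1 site TGANTCA, the ATF4/CHOP composite core TGATGNAA and the ER stress element. The capitals mark an AP-1 match at bases -120 to -114 before the start of TNFSF15. This motif reads the same on both strands and was counted once. Of 35116 RefSeq promoters, 6.57% held it in the 250 bases before the start. The shares were 5.21% for the NF-kB consensus, 3.14% for the ATF4/CHOP core and 0.0740% for the ER stress element, none of which matched these 3 windows. TRAF1 has 3 RefSeq starts in the table, of which the most upstream is shown. Neither of the other windows of 250 bases held a match, and the ATF4/CHOP core matched on the minus strand just after 1 of those starts. The RefSeq start of TNFSF15 lies 13.60 kb downstream of the 5′ end that GENCODE 29 gives the gene, so the window covers 1 start within the annotated gene. The promoter of TNFSF15 was 50.0% GC, that of TRAF1 70.0% and that of TNFSF9 64.4%. In all, 6 of the 10 genes had a promoter in the table used, and a match is a description of the letters only.

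Among the TRAIL receptors, TNFRSF10B and TNFRSF10D rose at both times, and TNFRSF10A was higher by an amount that did not pass the test. TNFRSF10B (ENSG00000120889; chromosome 8, 23020133 to 23069179, minus strand) encodes the death receptor DR5. At 12 h it had 122 and 115 CPM with EMD37, against 71.7 and 75.7 CPM with vehicle. After 24 h the values were 164 and 154 CPM with EMD37, against 87.8 and 99.7 CPM with vehicle. Both EMD37 libraries stood above both vehicle libraries at each time. Its log2 change was 0.68 (SE 0.09, 1.61-fold, adjusted p = 4.44e-05) at 12 h and 0.76 (SE 0.08, 1.70-fold, adjusted p = 2.07e-06) at 24 h. The 24 h effect minus the 12 h effect was 0.08 (95% interval -0.17 to 0.33, adjusted p = 0.707).

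DDIT3, which encodes CHOP, was read beside TNFRSF10B as a point of reference. It had 160 and 191 CPM with EMD37 at 12 h, against 16.5 and 19.2 CPM with vehicle. At the later time it had 104 and 106 CPM with EMD37, against 23.4 and 18.5 CPM with vehicle. Its log2 change was 3.29 (SE 0.12, adjusted p = 1.10e-11) at 12 h and 2.32 (SE 0.12, adjusted p = 3.28e-10) at 24 h, and the 24 h effect minus the 12 h effect was -0.98 (SE 0.17, adjusted p = 0.00114). The estimate for TNFRSF10B was thus close at both times, and that for DDIT3 was lower at the later time. Whether the time courses of these genes differ from each other was not tested.

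TNFRSF10D (ENSG00000173530; chromosome 8, 23135588 to 23164030, minus strand) encodes the decoy receptor DcR2, which binds TRAIL but has a truncated death domain. It had 49.9 and 53.6 CPM with EMD37 at 12 h, against 36.3 and 35.2 CPM with vehicle. By 24 h it had 98.9 and 102 CPM with EMD37, against 30.7 and 32.0 CPM with vehicle. The groups did not overlap at either time, and the highest values were those of EMD37 at 24 h. This gave a log2 change of 0.53 (SE 0.10, 1.45-fold, adjusted p = 0.00157) at 12 h and 1.68 (SE 0.09, 3.21-fold, adjusted p = 9.15e-10) at 24 h. It was larger at 24 h by 1.15 (SE 0.13, adjusted p = 2.80e-05).

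TNFRSF10A (ENSG00000104689; chromosome 8, 23190452 to 23225126, minus strand) encodes DR4, the other TRAIL receptor with a complete death domain. It had 48.3 and 48.5 CPM with EMD37 at 12 h, against 42.1 and 42.9 CPM with vehicle. At 24 h it had 41.2 and 44.3 CPM with EMD37, against 37.0 and 37.4 CPM with vehicle. The EMD37 libraries stood above the vehicle libraries at both times, by a small margin. The fitted log2 change was 0.19 (95% interval -0.02 to 0.40, adjusted p = 0.287) at 12 h and 0.20 (-0.01 to 0.42, adjusted p = 0.127) at 24 h. Both intervals include no change as well as a rise of over 0.3. The 16.6% of its exon bases named above overlap TNFRSF10A-AS1 and AC100861.1 on the opposite strand. Reads there cannot be assigned to a strand, and how they were counted is not given in the sources used here.

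TNFSF10 (ENSG00000121858; chromosome 3, 172505508 to 172523507, minus strand) encodes TRAIL itself and had few reads. It had 11 and 4 reads with EMD37 at 12 h, against 4 and 6 reads with vehicle. After 24 h there were 10 and 14 reads with EMD37, against 5 and 4 reads with vehicle. The groups overlapped at 12 h and not at 24 h. The log2 change was 0.61 (SE 0.62, adjusted p = 0.617) at 12 h and 1.41 (SE 0.58, adjusted p = 0.0618) at 24 h, neither of which passed the test. Without EMD37 A of 12 h the 12 h value was -0.21. The other decoy receptor of TRAIL at the cell surface, TNFRSF10C, had 0 to 2 reads in each library.

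Per length, the decoy TNFRSF10D made up a larger share of the 3 TRAIL receptor genes' RNA with EMD37 at 24 h. CPM divided by the kilobases of exon (RPKM) were used to set genes beside each other, and the shares that follow are of the summed RPKM of TNFRSF10A, TNFRSF10B and TNFRSF10D. TNFRSF10D took 37.9% and 39.2% of the sum with EMD37 at 24 h, against 22.7% and 22.0% with vehicle. At 12 h it took 26.1% and 28.1% with EMD37, against 26.7% and 25.4% with vehicle, so the shares overlapped. TNFRSF10A took 18.9% and 20.3% with EMD37 at 24 h, against 32.8% and 30.9% with vehicle, and 30.3% and 30.5% with EMD37 at 12 h, against 37.1% and 37.1% with vehicle. TNFRSF10B took 43.2% and 40.5% with EMD37 at 24 h, against 44.5% and 47.1% with vehicle, and 43.7% and 41.4% with EMD37 at 12 h, against 36.2% and 37.5% with vehicle. These shares are a description of RNA, with no test.

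FAS (ENSG00000026103; chromosome 10, 88990582 to 89015785, plus strand) encodes the receptor of FAS ligand. It had 5 and 5 reads with EMD37 at 12 h, against 0 and 2 reads with vehicle, and 3 and 2 reads with EMD37 at 24 h, against 2 and 3 reads with vehicle. Most of these counts are at or under 3 reads, a floor of 0.262 to 0.334 CPM that covers counting error only, and no fold is given. FASLG, the FAS ligand, and FADD, the adaptor of both FAS and the TRAIL receptors, had 0 reads in all 8 libraries, which allows up to 3 reads in each. Several other usually abundant genes had few counted reads in this table, for a reason not given in the sources used here, so these low levels describe the counts and not the protein.

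TNFRSF21 (ENSG00000146072; chromosome 6, 47231532 to 47309905, minus strand) encodes the death domain receptor DR6 and was the 1 gene of the 10 called lower. It had 82.3 and 85.7 CPM with EMD37 at 24 h, against 141 and 148 CPM with vehicle. At 12 h it had 101 and 105 CPM with EMD37, against 109 and 127 CPM with vehicle. The groups did not overlap at either time, and the gap was narrow at 12 h. Its log2 change was -0.19 (SE 0.08, adjusted p = 0.185) at 12 h and -0.78 (SE 0.09, adjusted p = 2.00e-06) at 24 h, 1.72-fold lower. The 24 h effect minus the 12 h effect was -0.59 (SE 0.12, adjusted p = 0.00338).

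TNFRSF12A (ENSG00000006327; chromosome 16, 3018445 to 3022383, plus strand) encodes Fn14, the receptor of the ligand TNFSF12 (TWEAK), and has no death domain. It had 304 and 294 CPM with EMD37 at 12 h, against 268 and 300 CPM with vehicle. After 24 h the values were 281 and 230 CPM with EMD37, against 271 and 348 CPM with vehicle. The groups overlapped at both times. This gave a log2 change of 0.07 (95% interval -0.16 to 0.31, adjusted p = 0.753) at 12 h and -0.28 (-0.51 to -0.04, adjusted p = 0.0559) at 24 h. With 1 library left out, the 24 h value was -0.41 without EMD37 A of 24 h and -0.42 without vehicle A of 24 h. Over all alternatives it ran from -0.42 to -0.09, so its size moved with the libraries used. With no filter on low counts it was called, at -0.28 (adjusted p = 0.0125). Its ligand gene TNFSF12 had 10 and 8 reads with EMD37 at 12 h, 9 and 7 with vehicle at 12 h, 10 and 4 with EMD37 at 24 h and 5 and 6 with vehicle at 24 h, and was not tested.

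TNFSF15 showed the steepest change of the 10 genes. It had 42 and 35 reads with EMD37 at 12 h (3.87 and 3.48 CPM), against 9 and 8 reads with vehicle (0.915 and 0.684 CPM). By 24 h there were 250 and 279 reads with EMD37 (26.4 and 26.9 CPM), against 12 and 12 reads with vehicle (1.11 and 1.29 CPM). The EMD37 libraries of 24 h stood above every other library. The fitted log2 change was 2.20 (SE 0.31, 4.60-fold, adjusted p = 1.65e-04) at 12 h and 4.47 (SE 0.23, 22.1-fold, adjusted p = 2.52e-10) at 24 h, and the second was larger by 2.26 (SE 0.47, adjusted p = 0.00346). By size its 24 h rise was number 16 of 14850 tested genes. Its receptor gene TNFRSF25 had 2.22 and 2.32 CPM with EMD37 at 24 h, against 3.52 and 2.80 CPM with vehicle, a log2 change of -0.48 that did not pass the test (adjusted p = 0.222).

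TNFSF9 was higher with EMD37 at both times, with a lower vehicle level at 24 h. It had 14.9 and 15.9 CPM with EMD37 at 12 h, against 9.35 and 9.58 CPM with vehicle. At the later time it had 14.9 and 17.3 CPM with EMD37, against 5.55 and 4.42 CPM with vehicle. The EMD37 libraries thus lay in the same range at both times, and the vehicle libraries of 24 h were the lowest. The log2 change was 0.70 (SE 0.17, 1.63-fold, adjusted p = 0.0145) at 12 h and 1.68 (SE 0.19, 3.21-fold, adjusted p = 2.20e-06) at 24 h, a difference of 0.98 (SE 0.25, adjusted p = 0.0147). The 12 h call ended when any 1 library of 12 h was left out, with adjusted p of 0.0768, 0.133, 0.102 and 0.0928 without EMD37 A, EMD37 B, vehicle A and vehicle B. The call of the difference ended without EMD37 A of 12 h (adjusted p = 0.0645) and without EMD37 B of 24 h (adjusted p = 0.0742).

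The receptor of TNFSF9, TNFRSF9 (CD137), was called higher with EMD37 at 24 h and not at 12 h. Its 12 h estimate of 0.79 lay beside 0.70 for TNFSF9, which was called at that time. Whether the 2 genes differ was not tested. TNFRSF9 had 17.5 and 17.3 CPM with EMD37 at 24 h, against 1.02 and 1.08 CPM with vehicle. At 12 h it had 3.59 and 3.48 CPM with EMD37, against 2.24 and 1.88 CPM with vehicle. Its log2 change was 4.04 (SE 0.25, 16.5-fold, adjusted p = 2.25e-09) at 24 h and 0.79 (SE 0.26, adjusted p = 0.0780) at 12 h, with a difference of 3.25 (SE 0.39, adjusted p = 3.48e-05). The EMD37 libraries stood above the vehicle libraries at both times, and the gap was wide only at 24 h.

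TRAF1 rose at both times with replicates close together. It had 65.8 and 73.2 CPM with EMD37 at 12 h, against 19.3 and 19.2 CPM with vehicle. By 24 h it had 149 and 144 CPM with EMD37, against 16.7 and 17.3 CPM with vehicle. The groups did not overlap, and EMD37 at 24 h was the highest. This gave a log2 change of 1.85 (SE 0.10, 3.60-fold, adjusted p = 1.88e-09) at 12 h and 3.11 (SE 0.10, 8.62-fold, adjusted p = 9.42e-13) at 24 h, and the second was larger by 1.26 (SE 0.14, adjusted p = 2.29e-05). By p-value TRAF1 was number 24 of all tested genes at 12 h and number 16 at 24 h.

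**Figure D2:**
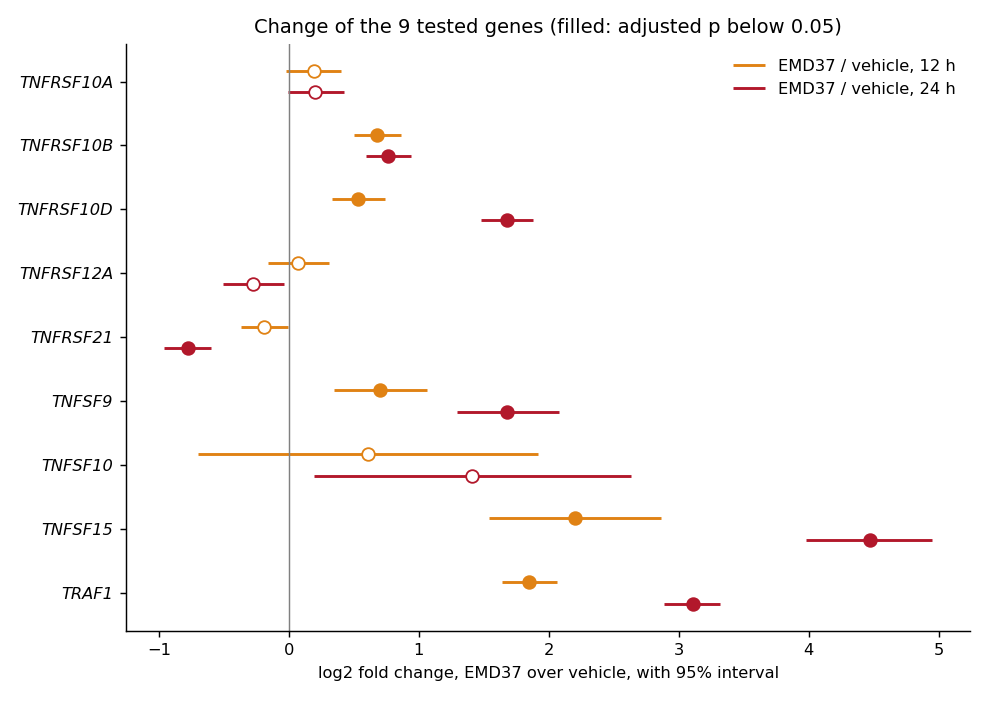
Log2 fold change of EMD37 over vehicle (horizontal axis) for the 9 tested genes at 12 h (upper of each pair) and 24 h (lower), with 95% intervals; filled points had an adjusted p below 0.05. TNFSF15 lies at 2.20 and 4.47 and TRAF1 at 1.85 and 3.11, TNFRSF10B at 0.68 and 0.76, and TNFRSF21 at -0.19 and -0.78.

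Vehicle cells of both times were also compared, to show how the genes moved without EMD37. In vehicle at 24 h against vehicle at 12 h, 1 of the 10 genes was called higher and 1 lower, where 5.99% of all tested genes were called, 2.75% higher and 3.25% lower. TNFRSF10B was higher by 0.34 (SE 0.09, adjusted p = 0.0308), and TNFSF9 was lower, at -0.92 (SE 0.20, adjusted p = 0.0145). The TNFSF9 call ended without vehicle A of 12 h (adjusted p = 0.107) or vehicle B of 12 h (0.0749). The TNFRSF10B call ended without EMD37 A (0.0616) or B (0.0600) of 12 h, vehicle A (0.236) or B (0.104) of 12 h, or vehicle B of 24 h (0.136). Without vehicle A of 24 h, TNFRSF12A (0.28, adjusted p = 0.0361) and TNFRSF21 (0.31, adjusted p = 0.0234) were called higher as well. Over all genes, 408 were higher and 482 lower with all 8 libraries, against 1564 and 929 without vehicle A of 24 h. They were 164 and 226 without EMD37 A, 176 and 198 without EMD37 B, 34 and 55 without vehicle A and 72 and 110 without vehicle B of 12 h, and 249 were higher without EMD37 B of 24 h.

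Ordered per length in vehicle at 24 h, the 10 genes ran from TNFRSF12A at 168 ± 29.3 RPKM (SD, n = 2) through TNFRSF21 at 40.2 ± 1.27, TNFRSF10B at 18.2 ± 1.64, TNFRSF10A at 12.6 ± 0.0876, TNFRSF10D at 8.86 ± 0.254, TNFSF9 at 2.99 ± 0.482 and TRAF1 at 2.64 ± 0.0753 to TNFSF15 at 0.152 ± 0.0163, TNFSF10 at 0.129 ± 0.00647 and FAS at 0.0597 ± 0.0230. TNFSF9 and TRAF1 did not differ beyond their spread, with 3.33 and 2.65 RPKM for TNFSF9 and 2.58 and 2.69 RPKM for TRAF1. With EMD37 at 24 h the order was TNFRSF12A at 138 ± 19.5 RPKM, TNFRSF10B at 30.8 ± 1.40, TNFRSF10D at 28.4 ± 0.677, TNFRSF21 at 23.4 ± 0.682, TRAF1 at 22.7 ± 0.554, TNFRSF10A at 14.5 ± 0.750, TNFSF9 at 9.66 ± 1.02, TNFSF15 at 3.38 ± 0.0480, TNFSF10 at 0.347 ± 0.0602 and FAS at 0.0599 ± 0.0206. TNFRSF21 and TRAF1 lay side by side there, with 22.9 and 23.8 RPKM for TNFRSF21 and 23.1 and 22.3 RPKM for TRAF1. TNFRSF21 thus ranked number 4 with EMD37 and number 2 with vehicle at 24 h, and TNFRSF10D ranked number 3 with EMD37 and number 5 with vehicle. At 12 h, TNFRSF12A and TNFRSF21 were numbers 1 and 2 in both groups. TNFRSF10B stood at 23.0 ± 0.902 RPKM with EMD37 and 14.3 ± 0.540 RPKM with vehicle at 12 h, level with TNFRSF10A in vehicle at 14.4 ± 0.206 RPKM.

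**Figure D3:**
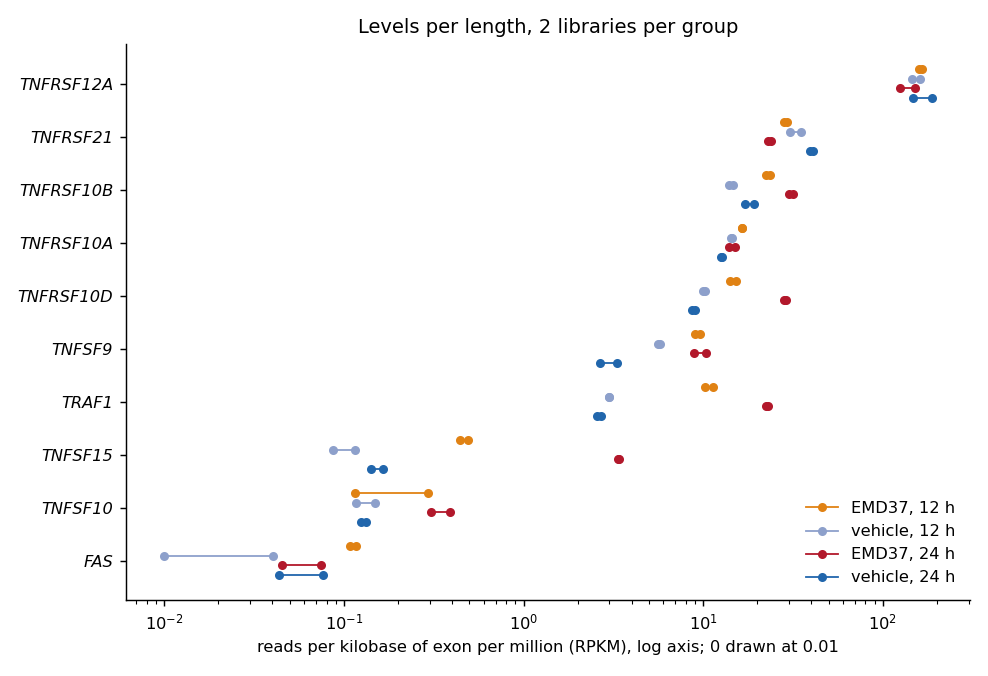
Level of the 10 genes per length (RPKM, log axis), by gene and group; joined points are the 2 libraries, and a value of 0 is drawn at 0.01. By mean, TNFRSF12A is highest and FAS lowest in every group, and TRAF1 lies at 22.3 to 23.1 RPKM with EMD37 at 24 h, against 2.58 to 2.69 RPKM with vehicle.

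The wider pathway was read from lists of its other genes. Of 22 other TNF receptors in the table, 10 were tested; 0 were called at 12 h, and 2 were higher and 2 lower at 24 h, beside 8.70% and 40.7% of all tested genes called at these times. At an unadjusted p below 0.05, 3 of the 10 passed at 12 h in edgeR, where 22.2% of all tested genes did, and DESeq2 called 0. Their median log2 change was -0.11 at 12 h and -0.28 at 24 h, beside -0.01 and -0.03 over all tested genes. Beside TNFRSF9, LTBR, the lymphotoxin beta receptor, rose by 0.45 (adjusted p = 0.00874) at 24 h. That call ended without EMD37 A of 24 h (adjusted p = 0.0726) or vehicle A of 24 h (0.27, adjusted p = 0.0531). TNFRSF11A (RANK) fell by 0.61 (the log2 change was -0.61, adjusted p = 0.00281). CD40 and TNFRSF19 were not called at either time. The log2 change of CD40 was -0.60 (adjusted p = 0.234) at 12 h and -0.72 (adjusted p = 0.0733) at 24 h. That of TNFRSF19 was -0.34 (adjusted p = 0.155) at 12 h and -0.06 (adjusted p = 0.797) at 24 h. TNFRSF11B (osteoprotegerin, a soluble decoy) changed by -1.05 (adjusted p = 0.0124), a call that ended without EMD37 A (0.0559) or EMD37 B (0.0674) of 24 h.

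Of 15 other TNF ligands, 6 were tested, with 1 called at 12 h and 2 at 24 h, each higher, beside the same 8.70% and 40.7% of all tested genes. Their median log2 change was 0.39 at 12 h and -0.17 at 24 h. TNFSF18 (GITR ligand) had 6.73 and 4.68 CPM with EMD37 at 12 h, against 2.24 and 1.88 CPM with vehicle, and 4.54 and 4.44 CPM with EMD37 at 24 h, against 1.11 and 1.29 CPM with vehicle. Its log2 change was 1.48 (SE 0.28, adjusted p = 0.00259) at 12 h and 1.90 (SE 0.33, adjusted p = 2.17e-04) at 24 h, and the 12 h call ended without EMD37 A of 12 h (1.19, adjusted p = 0.0746). TNFSF8 (CD30 ligand) had 2.53 and 2.90 CPM with EMD37 at 24 h, against 0.648 and 0.754 CPM with vehicle, a log2 change of 1.95 (SE 0.41, adjusted p = 0.00128). It passed the low-count filter through its EMD37 libraries, since 4 of them and 1 vehicle library were above 0.958 CPM. TNFSF13B and TNFSF4 were not called at either time. The log2 change of TNFSF13B was -0.61 (adjusted p = 0.471) at 12 h and -1.10 (adjusted p = 0.0850) at 24 h. That of TNFSF4 was 0.41 (adjusted p = 0.518) at 12 h and -0.40 (adjusted p = 0.364) at 24 h. TNF itself had 0 or 1 read in each library.

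Among 20 genes of the death receptor complexes and their effectors, 18 were tested; 3 were called at 12 h, each higher, and 6 were higher and 3 lower at 24 h. Of all tested genes 8.70% were called at 12 h, and 19.6% were higher and 21.1% lower at 24 h. The list's median log2 change was 0.04 at 12 h and 0.16 at 24 h. BIRC3 (cIAP2), a ubiquitin ligase that TRAF1 and TRAF2 bring to TNF receptors, had 352 and 339 CPM with EMD37 at 12 h, against 159 and 145 CPM with vehicle, and 746 and 821 CPM with EMD37 at 24 h, against 147 and 141 CPM with vehicle. Its log2 change was 1.19 (SE 0.08, adjusted p = 2.68e-08) at 12 h and 2.45 (SE 0.08, adjusted p = 1.60e-12) at 24 h. Its neighbour and relative BIRC2 (cIAP1) changed by -0.51 (adjusted p = 9.47e-05) at 24 h. CYLD and RBCK1, which remove and build linear or K63-linked ubiquitin chains at these receptors, rose by 0.91 and 0.36 at 12 h (adjusted p of 0.00749 and 0.0321) and by 1.09 and 0.71 at 24 h (adjusted p of 4.75e-04 and 2.83e-05). The 12 h call of CYLD ended without EMD37 A (0.0929), vehicle A (0.0570) or vehicle B (0.0659) of 12 h. The 12 h call of RBCK1 ended without EMD37 A (0.152), EMD37 B (0.227), vehicle A (0.175) or vehicle B (0.191) of 12 h, without EMD37 A (0.0560) or B (0.0552) of 24 h, with no filter (0.0978) and in DESeq2 (0.0690).

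CFLAR (c-FLIP), the caspase-8 inhibitor, rose by 0.45 (adjusted p = 1.41e-04) at 24 h. CASP8, the initiator caspase, named after its values were seen, changed by -0.50 (adjusted p = 0.00448) at 24 h. BID, the caspase-8 substrate that links to mitochondria, rose by 0.59 (adjusted p = 4.37e-04) at 24 h. Its 12 h estimate had the other sign, at -0.28, and was not called (adjusted p = 0.153). BID had 27.7 and 24.9 CPM with EMD37 at 12 h, against 31.6 and 32.2 CPM with vehicle. The CASP8 call ended without EMD37 A (adjusted p = 0.0709) or vehicle A (-0.32, adjusted p = 0.0618) of 24 h.

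All 14 genes of the TRAF family and its partners were tested; 2 were higher and 1 lower at 12 h, and 7 were called at 24 h, each higher. Of all tested genes 5.27% were higher and 3.43% lower at 12 h, and 40.7% were called and 19.6% higher at 24 h. The list's median log2 change was 0.06 at 12 h and 0.35 at 24 h. TNFAIP3 (A20), a ubiquitin-editing inhibitor of NF-kB, had 164 and 171 CPM with EMD37 at 24 h, against 14.2 and 19.5 CPM with vehicle, a log2 change of 3.32 (SE 0.12, adjusted p = 4.79e-12). Its 12 h change of 0.45 (adjusted p = 0.0411) was no longer called without EMD37 A (0.110), EMD37 B (0.301), vehicle A (0.140) or vehicle B (0.198) of 12 h, and without EMD37 A (0.0605) or EMD37 B (0.0797) of 24 h. TNIP1, a partner of A20, rose by 1.02 (adjusted p = 5.57e-05) at 12 h and 1.87 (adjusted p = 7.52e-09) at 24 h. TAX1BP1, another A20 partner, rose by 0.81 (adjusted p = 2.53e-05) and TAB2, an adaptor of the kinase TAK1, by 0.55 (adjusted p = 2.10e-05) at 24 h. TRAF5 changed by -0.41 (adjusted p = 0.00874) at 12 h, a call that ended without EMD37 A (0.0782), EMD37 B (0.118), vehicle A (0.0727) or vehicle B (0.0905) of 12 h. TRAF6 (0.64, adjusted p = 1.45e-04) and TANK (0.47, adjusted p = 4.85e-04), named after their values were seen, and TRAF2 (0.53, adjusted p = 0.0348) were the other genes called at 24 h. The TRAF2 call ended without EMD37 A (0.165), EMD37 B (0.0629) or vehicle A (0.19, adjusted p = 0.315) of 24 h, without EMD37 A of 12 h (0.0641) and with the 24 h groups alone (0.0996).

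**Figure D4:**
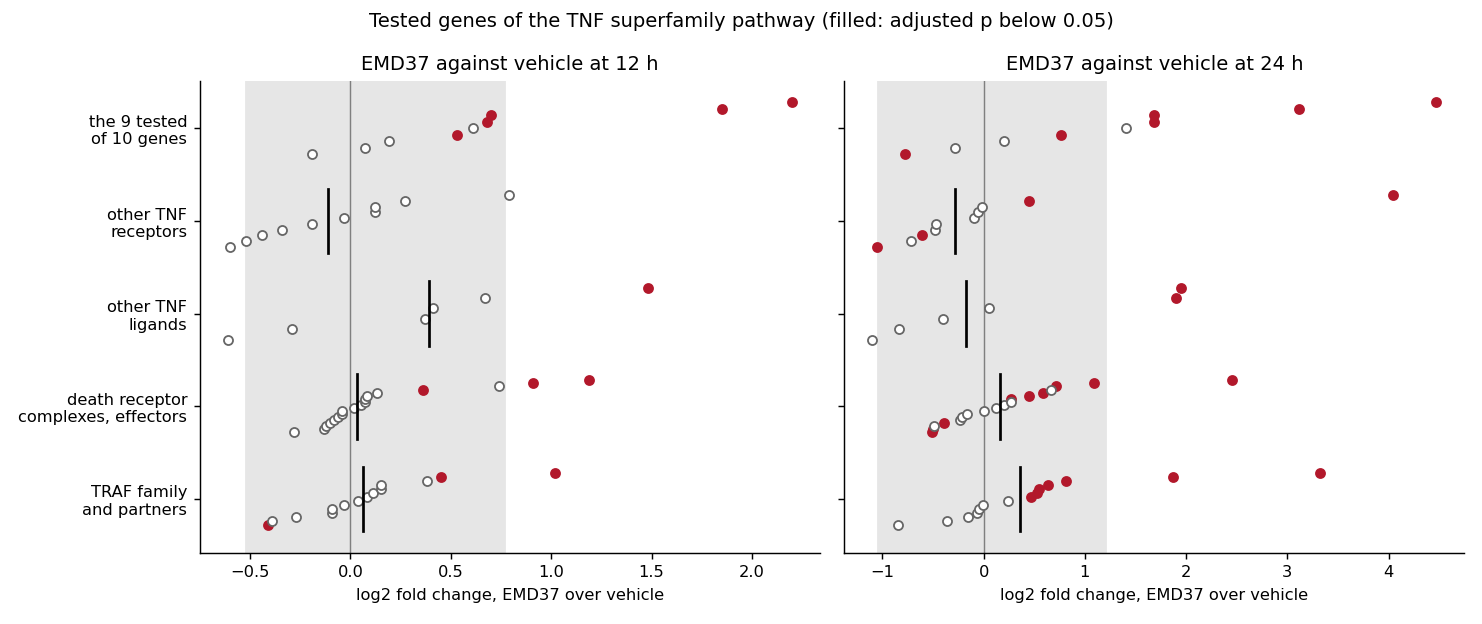
Log2 fold change of EMD37 over vehicle for each tested gene of 5 lists, at 12 h (left) and 24 h (right); filled points had an adjusted p below 0.05, black bars are list medians (none for the 10 genes), and grey spans hold the middle 90% of all tested genes, from -0.52 to 0.77 at 12 h and from -1.04 to 1.21 at 24 h. Among the genes beyond the grey span are TNFSF15, TRAF1, BIRC3 and TNFRSF9 at both times and TNFAIP3 at 24 h.

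The genes with the nearest patterns were sought over the 8 libraries, as the smallest root mean square difference of centred log2 CPM among 10401 genes of at least 5 CPM on average. Nearest to TNFRSF10B were SHISA2 (0.07), CALCRL-AS1 (0.08), PI4K2A (0.08), VEGFA (0.08) and GID4 (0.09). Nearest to TRAF1 were SLC38A2 (0.20), FTH1 (0.26), IL1A (0.27), CTH (0.29) and KLF9 (0.30). Nearest to TNFSF15 were CREBRF (0.34), IL6 (0.39), GABARAPL1 (0.43), BEST1 (0.45) and KLHL24 (0.47). The smallest difference was 0.34 for TNFSF15 and 0.07 for TNFRSF10B. This measure can grow with the size of a gene's own change, so it does not rank the matches of different genes. The correlation over the 8 libraries was 0.987 for CREBRF with TNFSF15 and 0.986 for SHISA2 with TNFRSF10B. All of these genes were measured in the same 8 libraries.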

How the data were processed

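Per the labels' protocols, total RNA of MDA-MB-231 cells (Direct-zol kit) entered the unstranded TruSeq V2 RNA-Seq kit, giving 8 libraries. The submitters' processing notes name FastQC, STAR, DESeq2 and hg38. Versions, roles and the counting program are not given in the sources used here. In the series files the authors deposited read counts per gene, which every test used. They also deposited normalized counts (signal), the reads divided by 1 size factor per library: where both tables hold a gene, the ratio varied by at most 9.7e-10. In the copy analysed, the count table held 36715 genes, 30765 with reads, and all 10 genes described are in it. The normalized table held 27682 identifiers, 6912 of them not in that copy. Their reads (8.26% to 11.66% of a library), recovered for 55296 of 55296 values as whole numbers within 0.01, entered an alternative only.

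Gene symbols came from a reference list of gene names, or from GENCODE 29 where that list had none. Gene coordinates and exon lengths were those of GENCODE 29. In edgeR 4.0.16 (R 4.3.3), 14850 genes passed filterByExpr at its minimum count of 10 (about 0.958 CPM in 2 libraries). TMM factors were 0.948 to 1.03, and 1 mean per group left 4 residual degrees of freedom, with a dispersion of 0.00537. Calls used the quasi-likelihood test with Benjamini-Hochberg adjustment over all genes at 0.05, and 95% intervals came from the same fit. The test was first run on simulated data. CPM use TMM library sizes, and RPKM divide CPM by merged exon length. Alternatives were DESeq2 1.42.0, its size factors in edgeR, no filter, a replicate block, the compared groups alone, recovered reads, and each library left out.

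The 10 genes, the lists and the motifs were chosen with earlier results of these data known. Genes of other lists were named by a rule (up to 4 per list with the smallest p at each time, and DDIT3). Outside it, the receptors or ligands of the 10 genes (TNFRSF25, TNFRSF10C, TNFSF12, FASLG), FADD, TNF, and CASP8, TRAF6 and TANK were named after their values were seen. BID and TRAF2 met the rule at 12 h. From the list of other TNF receptors, TNFRSF6B was not analysed here. Promoters are RefSeq's on GRCh38.p14. Some genes of these lists are not reported here.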

Additional observations from a re-analysis of the deposited data

Results flagged for a closer look

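The effect of EMD37 differed between 24 h and 12 h, by the test of the difference itself (the interaction in edgeR's quasi-likelihood test), in the genes that follow. Each value is the 24 h log2 change minus the 12 h one. Among the 10 genes, it was 1.15 for TNFRSF10D, -0.59 for TNFRSF21, 0.98 for TNFSF9, 2.26 for TNFSF15 and 1.26 for TRAF1. For TNFSF9 the level with EMD37 was 16.1 CPM at 24 h and 15.4 CPM at 12 h, while the level with vehicle was 4.98 CPM at 24 h and 9.46 CPM at 12 h. Its difference thus came with a lower vehicle level, and EMD37 at 24 h against EMD37 at 12 h was not tested. For TNFRSF10D, TNFSF15 and TRAF1 the vehicle values of the 2 times did not differ past the threshold. For TNFRSF21 the level with EMD37 was 84.0 CPM at 24 h and 103 CPM at 12 h. Its level with vehicle was 144 CPM at 24 h and 118 CPM at 12 h, a log2 change of 0.29 near the threshold (adjusted p = 0.0508).

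Among receptors, effectors and adaptors of the wider pathway, the difference was 3.25 for TNFRSF9, 1.26 for BIRC3, -0.58 for BIRC2, 0.43 for CFLAR, 0.87 for BID, 2.87 for TNFAIP3, 0.85 for TNIP1, 0.44 for TAB2, 0.66 for TAX1BP1, 0.49 for TRAF6 and 0.55 for TANK. These were 1 of 10 tested other receptors, higher, and 3 higher and 1 lower of 18 tested effectors. The TRAF family and its partners had 6 higher of 14 tested, and 0 of 6 tested other ligands were called. Of all tested genes, 7.96% were higher and 7.94% lower in this test. BIRC3 and BIRC2 went opposite ways. CFLAR had 129 CPM at 24 h and 113 CPM at 12 h with EMD37, and 94.5 CPM at 24 h and 111 CPM at 12 h with vehicle. The difference for DDIT3 was -0.98. The call for CFLAR ended without EMD37 B of 12 h (adjusted p = 0.0650), and that for TANK likewise (0.0535). The call for TAB2 ended without EMD37 B (0.0550) or vehicle B (0.0626) of 12 h. The call for TAX1BP1 ended without EMD37 B (0.0757) or vehicle A (0.0503) of 12 h or EMD37 B of 24 h (0.0749). The call for TRAF6 ended without any 1 of 7 libraries, with adjusted p from 0.0533 to 0.177, and held without vehicle A of 24 h.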

How the results depend on the processing

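Of 1097 comparisons of a gene's value with an alternative, 1017 kept direction and side of the threshold, 69 lost and 6 gained a call, and 5 changed sign, none of them called. With 1 library left out these ran from -0.21 (without EMD37 A of 12 h) to 1.11 for TNFSF10 at 12 h and from -0.04 (without EMD37 B of 24 h) to 0.08 for the TNFRSF10A interaction. Between vehicle times they ran from -0.05 (without vehicle B of 24 h) to 0.28 for TNFRSF12A and from -0.18 to 0.13 for TNFSF10 (0.13 without vehicle B of 12 h, 0.01 without vehicle B of 24 h). Leaving out 1 library gave 4 to 5 of the 10 genes higher and 0 lower at 12 h, 5 higher and 1 to 2 lower at 24 h, 3 to 4 higher and 1 to 2 lower for the interaction, and 0 to 3 higher and 0 to 1 lower between vehicle times. With no filter, 2 were lower at 24 h, TNFRSF12A being added. With the compared groups alone, 0 were higher and 0 lower between vehicle times, and the cause was not tested. Over all genes, the 12 h comparison of compared groups alone called 1394 higher and 1109 lower, and DESeq2 called 333 lower. Between vehicle times 623 were higher with no filter, and 42 higher and 83 lower with the compared groups alone. Recovered reads gave 853 higher and 492 lower at 12 h and 3443 and 3304 at 24 h. A lone library left in a group is assumed to vary like the other groups. FAS and TNFSF10 had few reads and FADD 0, and the cause was not tested.

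The labels did not state whether the replicate letters pair libraries across groups. Differences of A minus B correlated between groups at -0.162 to 0.161 over 14850 genes. Correlations of this size show no strong shared shift, and cannot tell whether a letter marks a shared culture or day. With the replicate block, 5 of the 10 genes were higher at 12 h, and 5 were higher and 1 lower at 24 h. The interaction had 4 higher and 1 lower and the vehicle times 1 and 1, all as without the block. Over all genes, the block gave 705 higher and 392 lower at 12 h and 2858 higher and 3037 lower at 24 h. It gave 1072 higher and 1067 lower for the interaction, and 326 higher and 354 lower between vehicle times.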
